A study of Mus musculus with 2 samples.

Results

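Genes for chromatin modifiers and remodellers were examined for binding of Aiolos, a zinc finger protein of the Ikaros family and the product of Ikzf3, in mouse natural killer (NK) cells. The 51 genes, out of 21900 protein-coding genes, belong to the ING, KMT, CHD, NuRD, PRC2, SIN3, SWI/SNF, ISWI, HDAC, KDM, acetyltransferase and bromodomain families. They were chosen by name, with earlier results of these data known. A member was counted as bound when the authors' annotation assigned it a peak. The data are CUT&RUN, in which an antibody tethers micrococcal nuclease to a protein on chromatin and the released DNA is sequenced. The NK cells were taken from spleen and grown in culture with 50 ng/ml interleukin-15 until there were at least 500000 cells per sample. There was 1 library with an antibody against Aiolos and 1 library with no primary antibody, and the labels give no genotype, strain, age or treatment beyond the culture. The authors deposited 1 list of 1404 peaks on mm10, so there is no replicate error, and the intervals below cover counting error only. The list holds no expression values, so the NK label could not be checked against marker genes.

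Chromatin-modifying enzymes add or remove acetyl and methyl groups on histone tails, and remodellers use ATP to slide or evict nucleosomes. Most work as subunits of large complexes: NuRD joins a CHD helicase to histone deacetylases, SIN3 is a scaffold for deacetylases, PRC2 methylates histone H3 at lysine 27, and SWI/SNF opens chromatin. Ikaros family proteins are known to associate with NuRD and SIN3 in lymphocytes.

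Of the 51 genes, 13 (25.5%) had at least 1 assigned Aiolos peak, while 5.38% of all protein-coding genes had one. They were Ing1, Ing2, Ing3, Kmt2a, Kmt5a, Kmt5c, Chd2, Chd3, Gatad2a, Eed, Hdac4, Sin3a and Smarca2, and together they held 17 peaks. A promoter peak, one with its centre within 1000 bp of the annotated transcript start, was present at 12 members (23.5%), beside 3.79% of all protein-coding genes. Gatad2a, Smarca2, Sin3a and Hdac4 had 2 peaks each, so that 4 of 51 members (7.84%) had 2 or more, beside 0.42% of protein-coding genes. All 13 genes kept a peak within 10000 bp of the annotated start, where 4.57% of protein-coding genes had one, and 6 of them had a peak at or above the median -log10 q of the list, where 2.89% of protein-coding genes had one. These shares are descriptions, since the members were chosen with earlier results of these data known.

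To show the sequence beside the strongest peaks and at a gene with starts at separate places, the 250 bases just upstream of 5 RefSeq start sites (GRCm38.p6, the assembly of mm10) are given below, 5′ to 3′ on the gene's strand. Capitals mark GGGAA, the core of the sequence that Ikaros family zinc fingers are known to recognise, or TTCCC, its reverse complement. Ing2 carries the strongest member peak and Kmt5c the next, Gatad2a has peaks at an outer and an inner start, and Eed represents PRC2.
Ing2, chr8:47675160-47675409, minus strand: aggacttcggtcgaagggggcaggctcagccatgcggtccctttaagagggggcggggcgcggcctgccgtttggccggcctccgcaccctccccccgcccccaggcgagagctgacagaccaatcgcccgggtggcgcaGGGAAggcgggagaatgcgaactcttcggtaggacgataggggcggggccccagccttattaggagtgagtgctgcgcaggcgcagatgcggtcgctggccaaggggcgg
Kmt5c, chr7:4739877-4740126, plus strand: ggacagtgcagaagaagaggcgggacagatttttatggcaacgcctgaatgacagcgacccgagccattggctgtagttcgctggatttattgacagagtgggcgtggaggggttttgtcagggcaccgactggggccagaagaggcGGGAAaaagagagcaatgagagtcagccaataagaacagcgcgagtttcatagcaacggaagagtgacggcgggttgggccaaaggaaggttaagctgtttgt
Gatad2a outer start, chr8:69996385-69996634, minus strand: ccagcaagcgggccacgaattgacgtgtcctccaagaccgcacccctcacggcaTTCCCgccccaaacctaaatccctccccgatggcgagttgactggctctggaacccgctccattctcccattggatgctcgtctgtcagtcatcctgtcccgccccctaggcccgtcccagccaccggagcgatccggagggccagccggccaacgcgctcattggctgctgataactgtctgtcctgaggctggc
Gatad2a inner start, chr8:69974384-69974633, minus strand: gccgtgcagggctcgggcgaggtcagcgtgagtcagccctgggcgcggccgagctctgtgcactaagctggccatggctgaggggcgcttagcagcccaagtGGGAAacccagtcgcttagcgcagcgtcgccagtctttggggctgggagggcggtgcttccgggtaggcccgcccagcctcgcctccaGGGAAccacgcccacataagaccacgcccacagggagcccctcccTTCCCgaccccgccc
Eed, chr7:89980977-89981226, minus strand: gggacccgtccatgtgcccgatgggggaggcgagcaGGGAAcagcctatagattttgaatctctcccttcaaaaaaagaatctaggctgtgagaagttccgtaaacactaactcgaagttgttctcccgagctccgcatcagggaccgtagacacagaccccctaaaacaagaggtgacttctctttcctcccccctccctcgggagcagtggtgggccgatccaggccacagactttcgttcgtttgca

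The printed stretches were picked, so their matches do not measure how common the motif is. Of all protein-coding windows from 250 bp before to 50 bp after a RefSeq start, 63.0% held it. The Hdac4 and Ing1 windows that their own peaks overlapped did not. Each of the printed stretches held the motif at least once, and the inner Gatad2a start held it 3 times. The peak summits did not lie on it: measured to the middle base of the nearest match, the summit was 38 bp away at the inner Gatad2a start, 46 bp at the outer one, 64 bp at Eed, 148 bp at Kmt5c and 238 bp at Ing2, where the summit was downstream of the start. At Ing2 the peak ran from -49 to 197 bp around the start, so most of the printed stretch and its motif lay outside the peak, while in the other 4 stretches the marked motifs lay under it. A match describes the letters only and does not show a bound site.

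**Figure D1:**
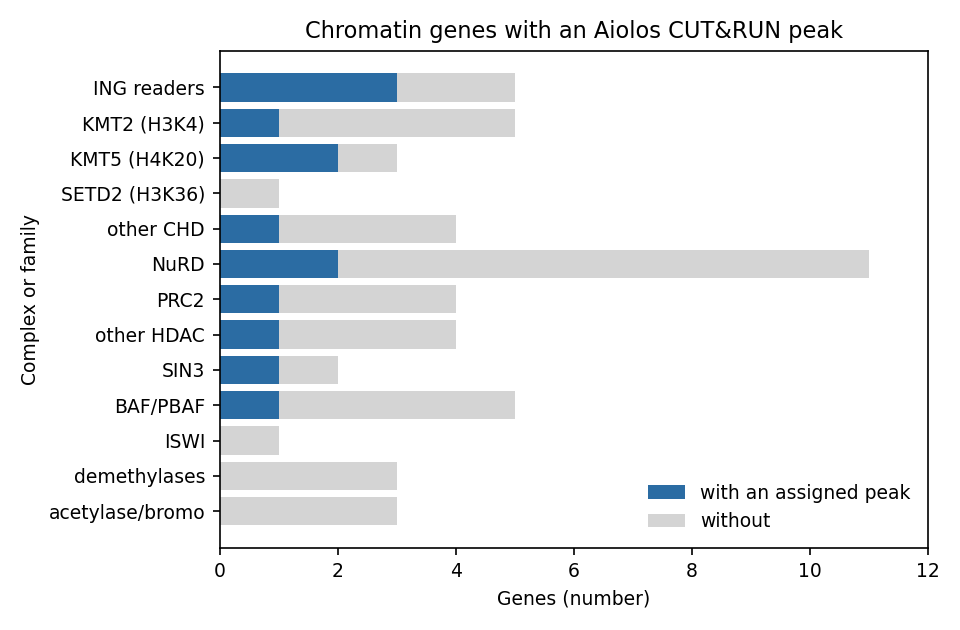
Number of genes in each complex or family (horizontal axis) with an assigned Aiolos peak (blue) and without one (grey), for the 51 chromatin genes, each counted in 1 family. ING readers had 3 of 5 genes and KMT5 methyltransferases 2 of 3, while demethylases and the acetyltransferase and bromodomain group had 0 of 3 each. Of all protein-coding genes, 5.38% had an assigned peak.

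The members were grouped into 13 complexes or families, and 9 of them had at least 1 gene with a peak. By count the ING family, readers of methylated histone H3 lysine 4 that recruit acetylase or deacetylase complexes, had 3 of 5 genes. The KMT5 methyltransferases of histone H4 lysine 20 had 2 of 3. Of these genes only Ing2 and Kmt5c had a peak at or above the median -log10 q of the list. NuRD, the largest group, had 2 of 11 genes (18.2%). The SIN3 scaffolds had 1 of 2, the CHD remodellers outside NuRD, PRC2 and the deacetylases outside NuRD 1 of 4 each, and the KMT2 and SWI/SNF groups 1 of 5 each. The demethylases Kdm1a, Kdm2b and Kdm6b had no assigned peak, and neither did the acetyltransferases Ep300 and Crebbp, the acetyl-lysine reader Brd2, the H3 lysine 36 methyltransferase Setd2 or the ISWI ATPase Smarca5. Of all protein-coding genes 5.38% had an assigned peak, so a group of 1 to 3 genes with none is near the overall share. With 1 to 11 genes per group, no order among the groups was tested. The plot of genes by complex shows that most groups with a peak had it at a single gene.

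Among the ING genes, Ing2, whose protein binds trimethylated H3 lysine 4 within the SIN3 complex, had the strongest peak of all members. It lay on chromosome 8 at 47674962 to 47675208, across the start, with a summit 129 bp downstream, and its fold enrichment was 9.53 (95% exact Poisson counting interval 5.28 to 16.1, from 12 tags over a background of 0.364). Fold enrichment is the authors' value, taken as the tags at the summit plus 1 over the local background plus 1, so it is lower than the plain ratio of tags to background. This peak ranked 165 of 1404 by fold. Ing1, a partner of the same complex, had a promoter peak of 5.07-fold (2.67 to 8.93, 10 tags) on chromosome 8 at 11558043 to 11558250. Ing3, a subunit of the NuA4/TIP60 acetyltransferase complex, had one of 4.83-fold (2.11 to 10.2, 5 tags) on chromosome 6 at 21949633 to 21949868. All 3 peaks overlapped their annotated starts. Ing4 and Ing5, which act with HBO1 and MOZ acetyltransferases, had no assigned peak, and the nearest peaks in the list lay 209.8 kb and 325.1 kb from these genes.

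Of the histone methyltransferase genes, Kmt5c, which makes di- and trimethylated H4 lysine 20 in heterochromatin, had the strongest peak, at 8.43-fold (4.31 to 15.3, 9 tags) on chromosome 7 at 4739718 to 4740074. Its summit was 237 bp upstream of the start, within 1000 bp of an end of the noncoding genes Gm24537 and Gm42369. Kmt5a, the enzyme for monomethylated H4 lysine 20, had the weakest peak of all members, at 4.22-fold (1.76 to 9.48, 4 tags) on chromosome 5 at 124439471 to 124439715, with its summit 400 bp upstream. The counting intervals of Kmt5c and Kmt5a overlapped. Kmt5b, the closest relative of Kmt5c, had no assigned peak, the nearest lying 191.2 kb away. Kmt2a, the MLL1 methyltransferase of H3 lysine 4, had a promoter peak of 7.17-fold (3.55 to 13.4, 8 tags) on chromosome 9 at 44881503 to 44881761, with its summit 356 bp upstream.

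In NuRD, peaks fell on the genes for a scaffold and a helicase. Gatad2a, which encodes the p66-alpha subunit that links the deacetylase and helicase modules, had 2 promoter peaks. The one at the outer start, on chromosome 8 at 69996364 to 69996656, had 7.59-fold enrichment (3.76 to 14.1, 8 tags), and the one at an inner start 22.1 kb into the gene, at 69974356 to 69974569, had 6.75-fold (3.22 to 13.0, 7 tags). A further peak of 7.59-fold inside Gatad2a, at 69918794 to 69919116, was assigned by the authors to the neighbour Yjefn3. Chd3, a NuRD helicase, had a peak of 5.90-fold (2.70 to 11.9, 6 tags) on chromosome 11 at 69366492 to 69366955, with its summit 1.79 kb upstream of the annotated start and inside the gene. Chd4, the other NuRD helicase among the members, Gatad2b, Mta1, Mta2, Mta3, Mbd2, Mbd3, Hdac1 and Hdac2 had none. Chd2, a remodeller outside NuRD, had a peak of 5.53-fold (2.99 to 9.52, 11 tags) on chromosome 7 at 73541287 to 73542046, the widest of the member peaks at 760 bp, which covered the start.

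Among the corepressors, Sin3a, the scaffold of the SIN3 complex, had peaks at 2 starts on chromosome 9. The first, at 57072016 to 57072223, had 6.37-fold enrichment (3.15 to 11.9, 8 tags) and a summit 65 bp downstream of its start. The second, at 57075905 to 57076282, had a lower fold, 4.58 (2.78 to 7.18), although it had the most tags of any member peak, 17, because its background was 2.93 tags against 0.412 at the first. Within 1000 bp of this peak lies an end of the noncoding gene 2700012I20Rik. Eed, the PRC2 subunit that reads trimethylated H3 lysine 27, had a peak of 6.32-fold (3.01 to 12.2, 7 tags) on chromosome 7 at 89980791 to 89981254, across its start. The catalytic PRC2 genes Ezh1 and Ezh2 and the core subunit gene Suz12 had no assigned peak.

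Hdac4, a class II deacetylase that is exported from the nucleus on phosphorylation, had a promoter peak of 6.91-fold (3.99 to 11.3, 14 tags) on chromosome 1 at 92180437 to 92180859. A second peak, of 5.90-fold (2.70 to 11.9, 6 tags) at 92064259 to 92064567, lay in intron 2 of the same gene, with the summits 116.3 kb apart. Smarca2, one of the alternative ATPases of SWI/SNF, also had peaks far from each other on chromosome 19. The peak at its outer start, at 26604985 to 26605414, had 4.83-fold enrichment (2.11 to 10.2, 5 tags), and the peak at an inner start 143.1 kb into the gene, at 26748136 to 26748372, had 6.60-fold (3.27 to 12.3, 8 tags). The inner start is that of a shorter annotated transcript. Smarca4, the alternative ATPase, and Arid1a, Arid1b and Arid2, the DNA-binding subunits, had no assigned peak.

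**Figure D2:**
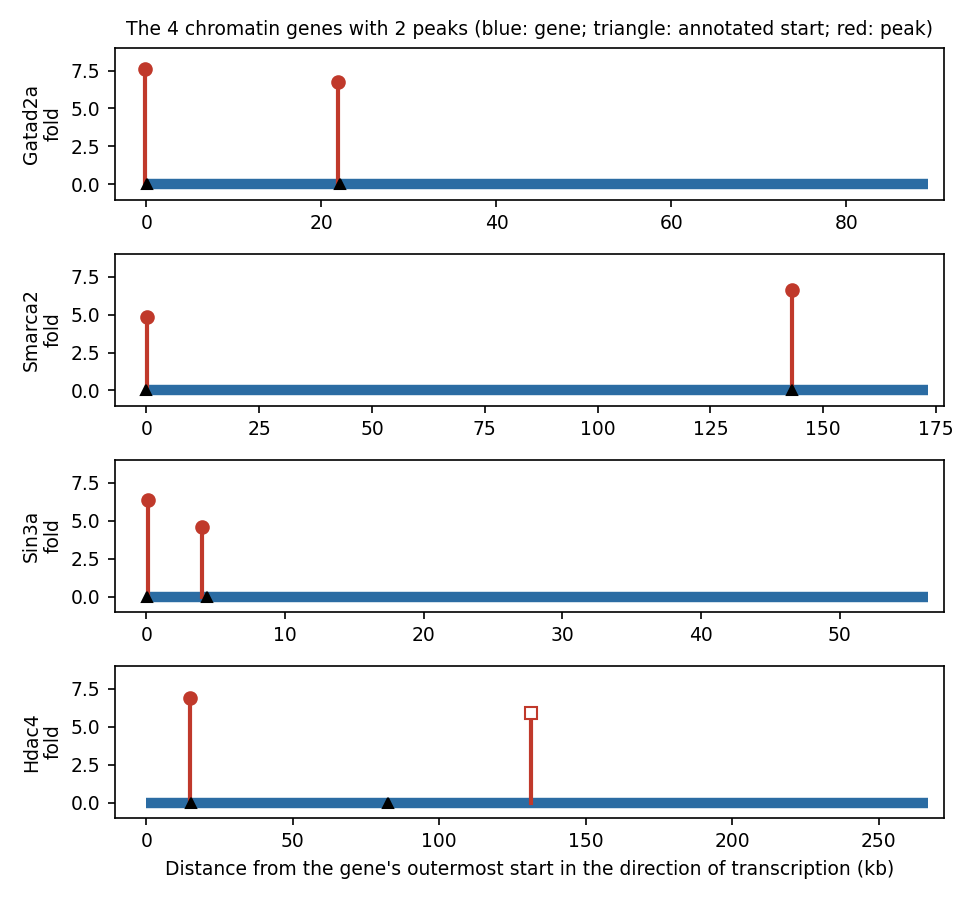
Fold enrichment (vertical axis) of the 2 peaks of Gatad2a, Smarca2, Sin3a and Hdac4 against the distance of the summit from the outermost start of the gene in kb (horizontal axis, scaled per gene); filled circles are promoter peaks, the open square is not, and black triangles are the starts the peaks were annotated to. Gatad2a, Smarca2 and Sin3a had 1 peak at the outermost start and 1 at an inner start 22.1, 143.1 and 4.39 kb inside.

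Several member peaks lay at inner starts. Of the 15 member promoter peaks, 5 (33.3%) sat at an annotated start more than 1000 bp inside the outermost 5′ end of the RefSeq gene, against 140 of 895 other promoter peaks (15.6%). They were the inner peaks of Gatad2a, Smarca2 and Sin3a, the Ing1 peak 2.43 kb inside and the Hdac4 promoter peak 15.4 kb inside. The gene ends include predicted transcripts, so the outermost end may not be the start used in NK cells. The plot of genes with 2 peaks shows these positions.

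Neighbouring genes were also counted at the promoter peaks. None of the 15 member promoter peaks had its centre within 1000 bp of an end of another protein-coding gene, whereas 27.4% of the 895 other promoter peaks did. Counting noncoding genes as well, 4 member promoter peaks (26.7%), those of Ing2 and Kmt5c and both of Sin3a, lay within 1000 bp of an end of another gene, beside 38.8% of the others. Neither difference, nor that in inner starts, was tested.

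In strength the member peaks lay near the middle of the list. The 17 peaks had a median fold enrichment of 6.32 (range 4.22 to 9.53), and the other 1387 peaks had a median of 6.44, a difference of -0.028 on the log2 scale. The promoter peaks of members had a median of 6.37 and those of other genes 6.60. None of the member peaks was among the 100 strongest of the list. The summits held 4 to 17 tags with a median of 8, the same median as in the whole list, and 13 of 17 (76.5%) rested on 10 tags or fewer, close to the 71.2% of all peaks. The 17 counting intervals all overlapped, the highest lower bound being 5.28 and the lowest upper bound 7.18. Overlap of intervals is not a test of a difference between peaks, and no order among the members was tested. The background was at its floor of 0.186 tags at 6 of the 17 peaks (35.3%), against 25.9% of the others, and peaks with the same tags and background have identical folds, as do Hdac4's intronic peak and the Chd3 peak.

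**Figure D3:**
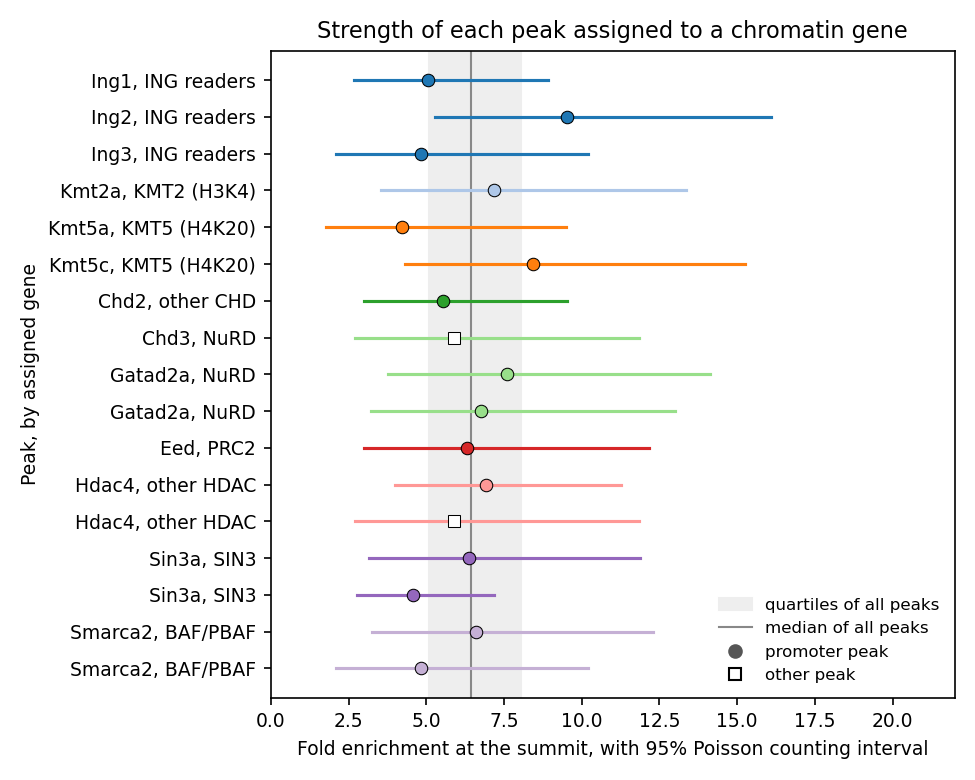
Fold enrichment at the summit (horizontal axis) of the 17 peaks assigned to chromatin genes, with 95% exact Poisson counting intervals, coloured by complex; the grey band and line are the quartiles and the median of all 1404 peaks. Ing2 had the highest fold, 9.53, and Kmt5a the lowest, 4.22, and all intervals overlap.

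By position, the member peaks were mostly promoter peaks: 15 of 17 (88.2%) against 895 of 1387 other peaks (64.5%). The exceptions were the intronic Hdac4 peak and the Chd3 peak. Of the 15 summits, 9 lay upstream of the start and 6 downstream, and 55.9% of the other promoter summits lay upstream. The median summit was at -148 bp, with the farthest upstream at -400 bp (Kmt5a) and the farthest downstream at 162 bp (Chd2), while the other promoter peaks had a median of -79 bp. Of the 15 peaks, 9 overlapped the start itself, as did 52.4% of the others.

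**Figure D4:**
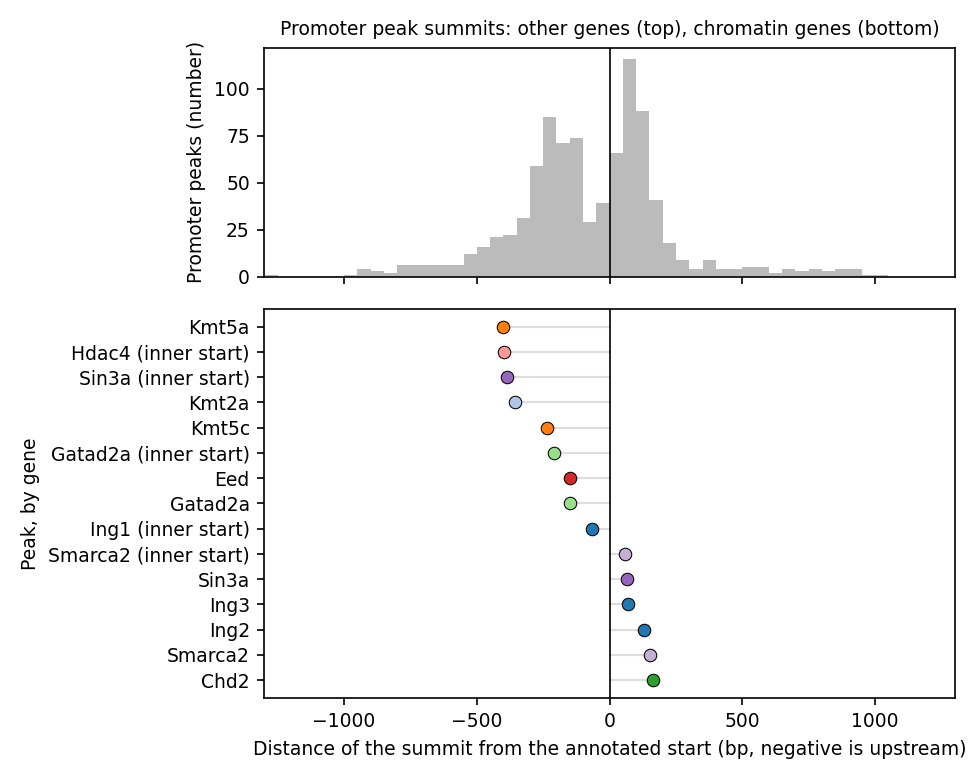
Position of the summit relative to the annotated start in bp (horizontal axis, negative is upstream), as a histogram in 50-bp bins for 895 promoter peaks of other genes (top) and as 1 point per peak for the 15 promoter peaks of chromatin genes (bottom), where "inner start" marks starts over 1000 bp inside the gene. The members spread from -400 to 162 bp, with 9 summits upstream and 6 downstream.

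The sequence around the starts was compared through windows from 250 bp before to 50 bp after a RefSeq start, which were found for 39 of the 51 members. Peaks assigned to the gene overlapped 13 windows of 11 members, and the summit itself lay inside 5 of them. GGGAA on either strand was present in 11 of these 13 windows (84.6%) and in 25 of the 47 member windows without a peak (53.2%). In 7 of the 13 (53.8%) a match lay under the peak itself, and at Ing2, Ing3, Kmt2a and Kmt5a each match lay in the part of the window outside it. It was also present in 63.0% of all protein-coding windows and in 63.9% of the 604 that a peak of their own gene overlapped, so across the list its frequency in windows with a peak was close to that in all windows. A match lay under the peak in 40.7% of the 604. The longer TGGGAA was in 2 of the 13 windows (15.4%, beside 24.5% of all windows), at the inner Gatad2a start and, outside the peak, at Ing3. The shorter GGAA, which lies within GGGAA and is also the core of ETS factor sites, was in all 13, beside 95.7% of all windows. The median GC content was 63.0% in the 13 windows with a peak, 65.3% in the member windows without one and 56.3% in all windows, and the median number of CG dinucleotides was 25, 29 and 13.

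The 38 members without an assigned peak were not all far from one. Peaks assigned to neighbours touched 2 of them. At Kmt2e, a relative of MLL that reads H3 lysine 4 methylation, a peak of 6.91-fold (3.99 to 11.3, 14 tags) lay on chromosome 5 at 23433049 to 23433401. It began 13 bp inside the boundary of Kmt2e with the lower coordinate, 23433036. It was assigned to the noncoding gene 5031425E22Rik, with its summit 639 bp from the annotated start of that gene. At Brd2, a peak of 6.60-fold (3.27 to 12.3, 8 tags) on chromosome 17 at 34119587 to 34119810 lay 3004 bp inside one end of the gene and was assigned to H2-DMa. Counting any peak that overlaps a gene or lies within 1000 bp of its ends, 15 of 51 members had one, beside 5.90% of all protein-coding genes.

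A further 8 members had a peak within 10000 bp of the gene that was assigned to a neighbour. The share of all protein-coding genes in this position was not counted, so the 8 are given as locations only. The gaps were 1.53 kb at Mta2 (assigned to Tut1), 2.05 kb at Chd8 (Supt16), 2.41 kb at Kdm6b (Cyb5d1), 3.19 kb at Crebbp (Trap1), 3.31 kb at Hdac3 (Diaph1), 4.22 kb at Kmt2b (Zbtb32), 5.47 kb at Arid1a (Pigv) and 7.09 kb at Kmt2d (Rhebl1). Over all 38 the median gap to the nearest peak was 215.8 kb, and the largest was 2634 kb, at Mbd2.

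The wider chromatin machinery was covered by 159 further genes of the same and related complexes, of which 17 (10.7%) had an assigned peak, again beside 5.38% of protein-coding genes. The strongest was at the promoter of Kdm4a, a demethylase of H3 lysine 9 and 36, with 12.6-fold enrichment (7.30 to 20.7, 14 tags). Jarid2, a PRC2 cofactor, had a promoter peak of 10.1-fold (5.58 to 17.0), and Kdm5a, a demethylase of H3 lysine 4, one of 9.94-fold (6.33 to 15.0, 21 tags). The genes grouped here as demethylases, absent among the members with a peak, had 3 of 16 with a peak in the wider list. Jmjd6 was the third of them, at 6.75-fold. The deacetylase Sirt2 had 2 intronic peaks, the stronger of 10.1-fold, and the PRC1 gene Phc2 an intronic peak of 8.83-fold.

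Weaker peaks in the wider list lay at Baz1b (8.09-fold), a subunit of the WICH remodeller, at Brd9 (7.37-fold), a SWI/SNF subunit, at Prmt5, an arginine methyltransferase with 2 peaks of up to 6.31-fold, at Setd1b (5.99-fold), an H3 lysine 4 methyltransferase, and at Ehmt2 (5.63-fold), the G9a methyltransferase of H3 lysine 9. The peak assigned to Tbl1xr1, a subunit of the NCoR complex, had 8.29-fold enrichment but lay 88.5 kb upstream in intergenic sequence. None of the 6 further NuRD genes, the 7 further SIN3 genes or the 10 DNA methylation genes in this list had an assigned peak. With 5.38% of all protein-coding genes having one, groups this small can hold none at the overall share. The list does not hold every subunit of these complexes. Phf12, a SIN3 subunit outside it, had a promoter peak of 6.75-fold. At 12 of the 159 genes (7.55%) a peak was at a promoter, beside 3.79% of all protein-coding genes.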

How the data were processed

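CUT&RUN with an Aiolos antibody and without a primary antibody was carried out on NK cells of mouse spleen after culture, with 1 library each. The authors deposited 1 peak list. The submitters' processing notes name the build mm10 and the tools Bowtie2, SAMtools, Picard and MACS2, without their roles. How peaks were thresholded, duplicates filtered and the control used is not given in the sources used here. Per the file headers, the authors' values per peak are a signal value, taken as MACS2's fold enrichment ratio at the summit (pileup plus 1 over local background plus 1), the -log10 p and -log10 q, a score (10 times the -log10 q, truncated, at all 1404 peaks) and an annotated gene.

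The pileup and background at each summit were solved from fold and p, as a whole pileup whose Poisson probability of being exceeded gives the p (largest error in -log10 p 1.75e-05; the method was tested on simulated data). The list gives no library depth, and the pileup is the depth behind each value. Fold intervals are exact Poisson intervals at 95% of the pileup with the background held fixed; duplicates of 1 molecule would make them too narrow. Each of the 1404 identifiers was found in the RefSeq table of GRCm38.p6, and 10 peaks carried another symbol there. The authors' annotation assigns each peak to 1 gene, at any distance.

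The members, the family groups and the 159 further genes were chosen with earlier results of these data known, so no list was tested. Every member with a peak is named, as are the 12 further genes with the highest fold. Alternatives were stricter peak sets, other promoter windows, assignment by overlap, pileup in place of fold and other motifs. Python 3.11.15, pandas 2.3.3 and SciPy 1.17.1 were used.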

Additional observations from a re-analysis of the deposited data

How the results depend on the processing

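Member and wider-list counts within 10000 bp of the start or by overlap, and promoter counts with windows of 500 and 3000 bp, the authors' edge distance or their annotation class, stayed within 1.5 times the values given. In the upper part of the list by -log10 q (median and above), 6 of 51 members had a peak and 6 a promoter peak. Of the 159 genes of the wider list 9 had a peak there, beside 2.89% of all protein-coding genes. Above the median fold the counts were again 6, 6 and 9. The share of all protein-coding genes was not counted above the median fold, nor for promoter peaks in either set. The stricter sets hold fewer peaks by construction. The same 6 members were left in both: Gatad2a, Hdac4, Ing2, Kmt2a, Kmt5c and Smarca2. The member minus other difference in median log2 fold was -0.17 in both sets, -0.043 with the strongest peak per gene, -0.050 with promoter peaks alone and 0 with pileup. Of member windows with a peak, 15.4% held TGGGAA and 100% GGAA. By construction TGGGAA can be in no more windows than GGGAA, and GGAA in no fewer. Depth limits single peaks: the median counting interval spanned 3.76 times from bound to bound. No paired analysis was possible because each group holds 1 library.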
